A study of Danio rerio with 12 samples.

Results

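The genes described here are the transcription factor genes of the nephron together with the Hox and Sox families, in kidneys of adult zebrafish after injury of the heart. They were taken by name, as every gene row whose symbol begins with sox, pax2, pax8, hnf, irx, hox, emx, lhx, osr, tfap2, mecom or sim1, or with the name of the sine oculis homeobox family and a digit. This gave 126 of 14781 rows, of which 48 were Hox genes, 24 were Sox genes and 54 belonged to the other families. After a filter on low counts 74 of the 126 could be tested, 31 Hox genes, 16 Sox genes and 27 of the others. A gene can pass that filter through the group in which it is high, so counts over the tested genes describe those genes and not the families as a whole. No row of mecom or pax8 was analysed here.

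Transcripts were counted by RNA sequencing of whole kidneys in 12 libraries from male fish of the EK strain, 4 to 12 months old. In 1 experiment cebpd+/+ fish (cebpd WT) were set against cebpd-/- fish (cebpd KO), and in the other CEN+/+ fish (CEN WT) against CEN-/- fish (CEN KO), with 3 libraries a group. All 4 groups had undergone ablation of heart muscle cells, with 17 h in tamoxifen at 0.5 to 0.7 µM, and kidneys were taken 7 days later, so no group shows an uninjured fish. cebpd encodes a C/EBP transcription factor and is the gene that the series title asks about, and neither the nature of CEN nor the lesion at either locus is stated in the labels. Replicates are numbered, but whether each came from its own fish is not stated, so a p-value reflects spread between libraries that may be technical.

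The factors fall into layers of a known developmental hierarchy. Osr, Pax2, Lhx1 and Six2 factors act early, in the intermediate mesoderm and in nephron progenitors. Hnf4, Irx, Emx, Sim1 and Tfap2 factors set or keep the identity of tubule segments. Hox factors give cells a position along the body axis, and in the zebrafish kidney, which also houses the blood-forming marrow, they are used by blood cells as well. Sox factors share a DNA-binding domain and fall into lettered groups, of which C is linked to progenitors, E to neural crest, cartilage and repairing tubules, and F to vessels. Adult zebrafish can form new nephrons from progenitors that express lhx1a and six2a.

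The deposited values were raw read counts, given here as CPM, counts relative to a library's total of gene counts, after scaling of the libraries. Gene counts were 15793475 to 18104535 per library, so a floor of 3 counts was 0.157 to 0.199 CPM, and the 126 genes held 0.187 to 0.37% of a library's gene counts. CPM is not divided by transcript length, so levels are compared between groups for 1 gene and not between genes. The floor covers counting error only. The cebpd transcript, which checks the labels, stood at 316, 466 and 337 CPM in cebpd WT and at 10.4, 4.03 and 12.9 CPM in cebpd KO. In the CEN groups it was 294, 333 and 212 CPM in CEN WT and 67.8, 72.7 and 77.8 CPM in CEN KO. Kidney markers were present in every library, with summed levels of 7340 to 12500 CPM for 19 proximal tubule genes and 573 to 1020 CPM for 10 podocyte genes.

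In the genes described here a pair of libraries stood apart from the rest of their groups. In cebpd KO 3, which also had the lowest scaling factor (0.835), 9 of the 74 tested genes lay at least 1 below the mean of their group on the log2 scale, 12.2% against 6.53% of all tested genes. sim1a, a bHLH-PAS factor of the straight proximal tubule and corpuscle of Stannius in zebrafish embryos, stood at 0.796 CPM there and at 5.01 and 11.9 CPM in the other cebpd KO libraries. sox9a was at 1.92 CPM in that library against 8.65 and 16.3 CPM. The other genes of this kind were sim1b, sox5, sox12, six5, sox6, hoxa9a and sox9b. Some were also lowest in the same-numbered wild type, cebpd WT 3, where 1 of the 74 genes lay at least 1 below the group mean. There sox9a was at 4.69 CPM against 14 and 15.6 CPM in the other cebpd WT libraries, sim1b at 12 against 30.1 and 21.4 CPM, and six5 at 2.19 against 6.18 and 4.44 CPM. sox5 and sox6 were lowest in cebpd WT 2. In CEN KO 1, lhx8a reached 109 counts, sox19b 102 and tfap2e 50, where no other library exceeded 8, 8 and 12 counts. The same library held 3321 counts of zp2.1 and 1907 of zp3, which encode egg coat proteins, and its 13 testis and ovary markers summed to 312 CPM, against at most 17.4 CPM in any other library, although all fish were labelled male. What these transcripts came from was not tested, and lhx8a, sox19b and tfap2e are left out of every comparison. CEN KO 3 was apart in skeletal muscle markers, of which 12 summed to 883 CPM there, against at most 189 CPM in any other library. The source of these was not tested either.

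**Figure D1:**
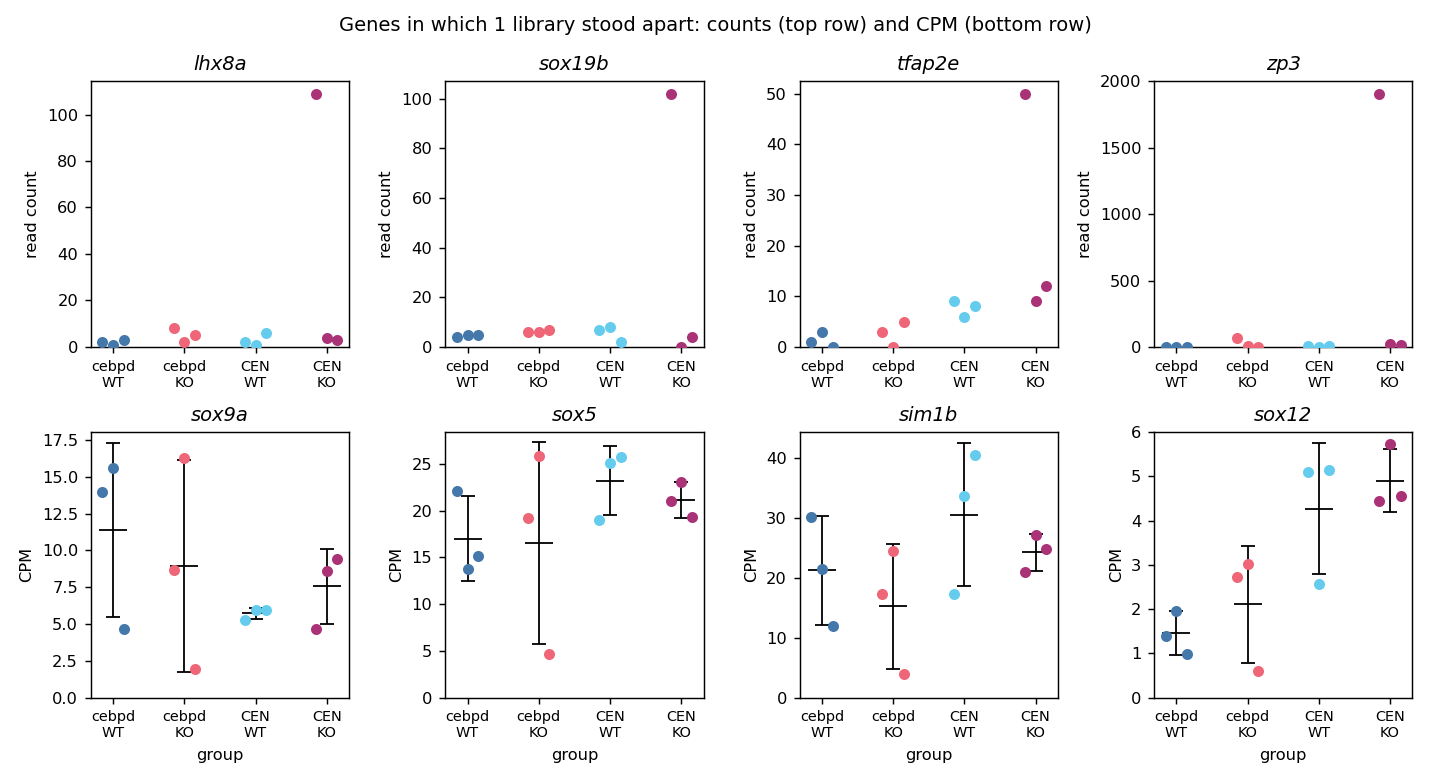
Read counts of lhx8a, sox19b, tfap2e and zp3 (top row) and CPM of sox9a, sox5, sim1b and sox12 (bottom row) by group, 1 point a library, with the group mean and SD as bars in the bottom row. CEN KO 1 is the single high point of the top row (109, 102, 50 and 1907 counts), and cebpd KO 3 is the lowest cebpd KO point of the bottom row.

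The other 49 genes without a test were rare. hoxd12a, hoxd13a, lhx1b, lhx2b and lhx3 had 0 counts in all 12 libraries, and 44 genes had at most 20 counts in any library. pax2b, the duplicate of pax2a, was among them, as were emx3, hnf4b, irx1b, irx4a, irx4b, irx6a, irx7, six2b and sox2. Among the Hox genes the rare ones were mostly those of the posterior end of the clusters. Of paralogue groups 1 to 5, 13 of 18 rows were tested, of groups 6 to 8 7 of 8 and of groups 9 and 10 9 of 9, but of groups 11 to 13 only 2 of 13 (hoxc11a and hoxc13b).

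**Figure D2:**
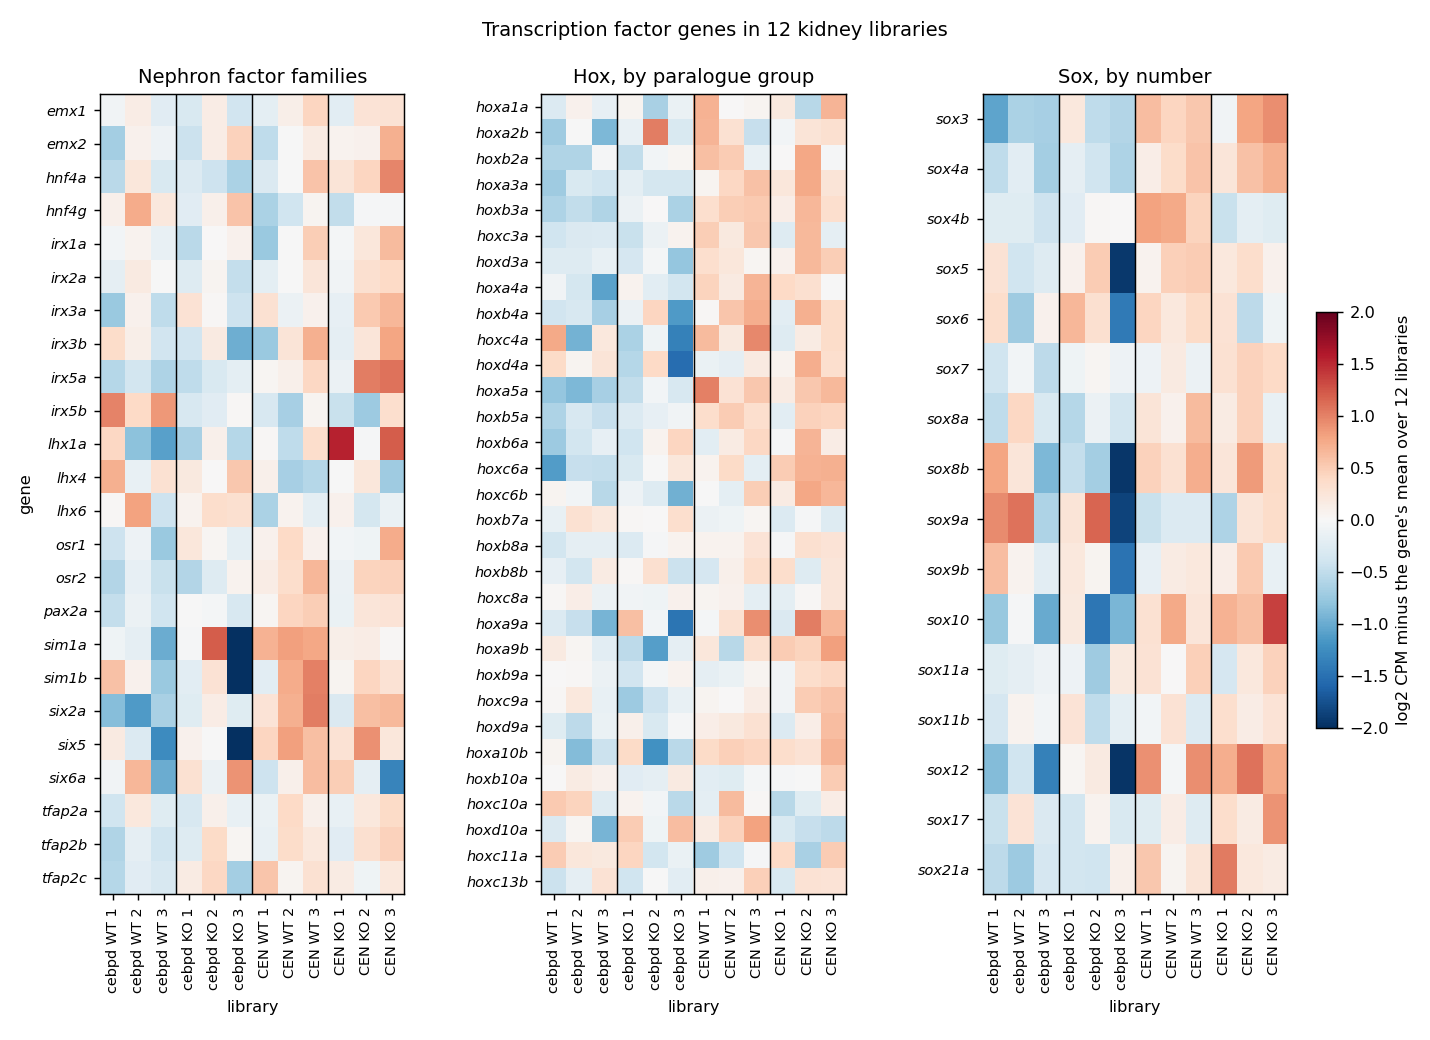
Log2 CPM of tested genes in each of the 12 libraries, minus each gene's mean over the libraries (colour, from -2 to 2), in 3 blocks of nephron factor families, Hox genes by paralogue group and Sox genes. Most rows are redder in the CEN libraries than in the cebpd libraries, sox4b is red in CEN WT and not in CEN KO, and cebpd KO 3 holds the dark blue cells of sim1a, sim1b, six5, sox5, sox8b, sox9a and sox12.

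None of these factors was called in the cebpd knockouts. With edgeR (quasi-likelihood) 0 of 74 reached an adjusted p under 0.05, where 0.0845% of all genes did (0.0169% higher and 0.0676% lower), and the lowest adjusted p was 0.276. At an unadjusted p under 0.05 there were 4 of 74 genes, against 13.4% of all genes, and neither DESeq2 nor limma-voom called any, against 3.46 and 0.0845% of all genes. The log2 fold changes ran from -1.17 to 0.88 with a median of 0.02 (all genes -0.01), and 40 of 74 lay above 0, against 48.6% of all genes. Without cebpd KO 3 the count was still 0. In 8 of 74 genes the 3 knockouts did not overlap the 3 wild types, against 16% of all genes. Of these 6 were higher, against 7.79% of all genes, and 2 lower, against 8.26%.

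In the comparison of the CEN knockouts with their wild types sox4b had the lowest p of the 74 genes and missed the threshold. The fold changes of lhx1a (1.18 ± 0.55) and hoxd10a (-1.03 ± 0.38, log2, SE) were larger, with larger errors. sox4b encodes a group C Sox factor linked to progenitor states. It stood at 64.6, 63 and 50.3 CPM in CEN WT and at 27.2, 32.2 and 31.4 CPM in CEN KO. All 3 knockouts lay below all 3 wild types. The log2 fold change was -0.97 ± 0.14 (SE), a level 1.96-fold lower, with an adjusted p of 0.0607 by edgeR. The adjusted p was 1.25e-06 with DESeq2, 0.0487 with limma-voom and 0.034 without CEN WT 3, so the call depends on the tool and on that library. Over all the alternative tools and settings it ranged up to 0.52, with log2 fold changes of -1.08 to -0.9. In the same comparison none of the 74 genes passed by edgeR, against 0.00845% of all genes, and sox4b was the single call of DESeq2 and of limma-voom, against 1.16 and 0.0422% of all genes. At an unadjusted p under 0.05 there were 4 of 74, against 9.86% of all genes. Above 0 were 45 of 74, against 50.6% of all genes, with a median of 0.07 (all genes 0.00).

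CEN WT was also the group that stood out among all 4. In cebpd WT sox4b stood at 31.5, 31.3 and 28 CPM, and in cebpd KO at 31.7, 37.6 and 37.1 CPM. The 9 libraries outside CEN WT therefore lay between 27.2 and 37.6 CPM, and the 3 of CEN WT between 50.3 and 64.6 CPM. Between the wild types sox4b was higher in CEN WT by 0.97 ± 0.14 (SE) on the log2 scale, with an adjusted p of 0.000835 by edgeR. The change from wild type to knockout was lower in the CEN experiment than in the cebpd experiment by a log2 difference of -1.2 ± 0.19 (SE), adjusted p 0.0658 by edgeR, and this difference passed with DESeq2 (3.81e-05), without CEN WT 3 (0.0356) and without cebpd KO 3 (0.0399). Over all the alternative tools and settings its adjusted p ranged up to 0.284. The spread of sox4b within groups was small, with an SD of 0.15 on the log2 scale, as for hoxc8a and hoxb8a, where the median of the 74 genes was 0.35 and that of all tested genes 0.28. Whether a lower level reflects fewer cells with the transcript or less transcript per cell cannot be told apart in these bulk samples, here and for every gene below.

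The duplicate gene sox4a showed no such gap in the CEN experiment. Its level was 88.7, 104 and 119 CPM in CEN WT and 95.1, 120 and 132 CPM in CEN KO, so the groups overlapped, and the log2 fold change was 0.16 ± 0.18 (SE, adjusted p 0.839). In the cebpd groups it was 56.5, 69.4 and 50.1 CPM in WT and 70.9, 60.8 and 52.2 CPM in KO. The ratio of sox4b to sox4a counts within a library was, on the log2 scale, -0.46, -0.72 and -1.24 in CEN WT and -1.81, -1.90 and -2.07 in CEN KO. These do not overlap, and the mean in CEN KO minus that in CEN WT is -1.12. In the cebpd experiment the same ratio differed by 0.16. A two-sided exact permutation test gave a p of 0.1 for the CEN experiment, the smallest that 3 libraries against 3 allow, and 0.5 for the cebpd experiment. The ratio was chosen with the values of both genes known. Reads that fit both copies may have been shared or dropped when the counts were made.

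**Figure D3:**
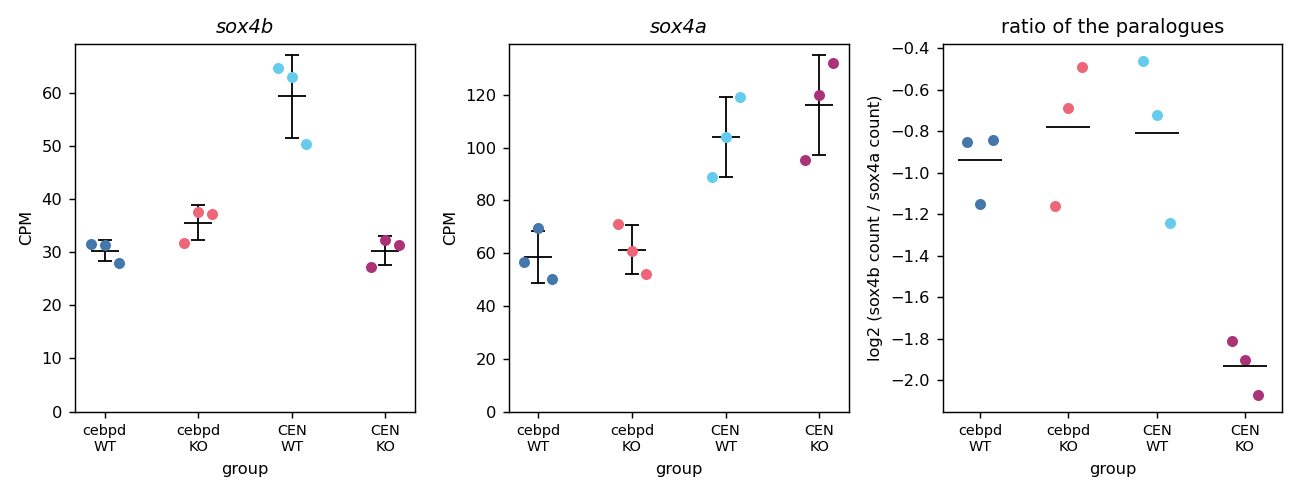
CPM of sox4b and of sox4a, and the log2 ratio of their counts, by group, 1 point a library, with the mean and, for CPM, the SD as bars. sox4b is at 50.3 to 64.6 CPM in CEN WT and at 27.2 to 37.6 CPM elsewhere, and the ratio in CEN KO (-2.07 to -1.81) lies below all other libraries.

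Cell cycle genes were read beside sox4b. Of 17 such genes 15 had log2 fold changes below 0 in CEN KO, with a median of -0.70 and none past the threshold. Of all genes 50.6% lay above 0 there. Their summed levels were 1270 to 1900 CPM in CEN WT and 874 to 1660 CPM in CEN KO, with no member at 0. In cebpd WT and KO the sums were 1290 to 2460 and 1620 to 1860 CPM. By replicate the sums were 1870, 1900 and 1270 CPM in CEN WT and 1660, 882 and 874 CPM in CEN KO. In the same libraries sox4b stood at 64.6, 63 and 50.3 CPM and at 27.2, 32.2 and 31.4 CPM. Between the wild types, where sox4b was higher in CEN WT, 6 of the 17 genes lay above 0, with a median of -0.18. The part of these genes in the sox4b difference was not tested.

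The other Sox C genes gave no call in either knockout. sox11b stood at 12.9 to 19.1 CPM in CEN WT and 17.4 to 19.7 CPM in CEN KO, and its log2 fold change was 0.25 ± 0.22 (SE, adjusted p 0.758). sox11a changed by -0.13 ± 0.28 and sox12 by 0.20 ± 0.46 (SE), with adjusted p of 0.943 and 0.95. In cebpd KO the values were 0.00 ± 0.22 for sox11b, 0.01 ± 0.28 for sox11a and 0.55 ± 0.50 for sox12 (SE, lowest adjusted p 0.705).

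Both tested Sox F genes, which act in endothelium, were higher in all CEN knockouts than in all CEN wild types without passing the test. sox7 stood at 34.8, 42.2 and 34.4 CPM in CEN WT and at 46, 51.2 and 49.3 CPM in CEN KO. The log2 fold change was 0.40 ± 0.14 (SE, adjusted p 0.367). sox17 stood at 4.23, 5.59 and 4.18 CPM in CEN WT and at 6.43, 5.61 and 9.46 CPM in CEN KO, 0.62 ± 0.27 (SE, adjusted p 0.481) on the log2 scale. For sox17 the gap between the groups was narrow, 5.59 against 5.61 CPM. Of 10 other endothelial genes 4 were above 0 in this comparison, with a median of -0.06, and their sums were 857 to 893 CPM in CEN WT and 771 to 882 CPM in CEN KO. In cebpd KO the changes were 0.26 ± 0.14 for sox7 and -0.06 ± 0.27 for sox17 (SE, adjusted p 0.474 and 0.959). In CEN KO, 8 of the 74 genes had no overlap with CEN WT, against 19.4% of all genes. Of these 5 were higher (sox7, sox17, hoxa9b, hoxb10a and hoxc6a), against 9.63% of all genes, and 3 lower (sox4b, hoxd10a and sim1a), against 9.77%.

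The Sox E genes, sox8a, sox8b, sox9a, sox9b and sox10, had log2 fold changes below 0 in cebpd KO in 5 of 5 cases and above 0 in CEN KO in 4 of 5, none past the threshold. Of all genes 48.6% lay above 0 in cebpd KO and 50.6% in CEN KO. sox8b had the largest of these. Its level was 4.21, 2.85 and 1.22 CPM in cebpd WT and 1.67, 1.45 and 0.531 CPM in cebpd KO, and the groups overlapped. The log2 fold change was -1.17 ± 0.47 (SE, adjusted p 0.293), and on leaving out 1 library it ranged from -1.52 to -0.73, the last without cebpd WT 1 (adjusted p 0.724). Without cebpd KO 3 it was -0.80 (adjusted p 0.361). sox9a, a factor that mammalian tubules switch on after injury, stood at 14, 15.6 and 4.69 CPM in cebpd WT and at 8.65, 16.3 and 1.92 CPM in cebpd KO, and so varied more within each group than between them. In CEN WT it was 5.27 to 5.96 CPM and in CEN KO 4.66 to 9.4 CPM, with a log2 fold change of 0.40 ± 0.60 (SE, adjusted p 0.898). The changes in CEN KO were 0.12 ± 0.40 for sox9b, 0.50 ± 0.45 for sox10 and -0.17 ± 0.31 for sox8a (SE). In cebpd KO they were -0.43 ± 0.41 for sox9b, -0.02 ± 0.50 for sox10, -0.28 ± 0.32 for sox8a and -0.35 ± 0.59 for sox9a (SE). cebpd KO 3 deviated from its group mean by -1.70 for sox9a, -1.08 for sox9b and -0.91 for sox8b on the log2 scale. In sox9a and sox10 the highest cebpd KO library, at 16.3 and 1.42 CPM, lay above every cebpd WT library. Except for sox8b, values without cebpd KO 3 are not given here, so the shared sign may rest on that library.

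Of the other Sox genes, sox5 and sox6, group D factors that partner Sox9 in cartilage, changed by -0.04 ± 0.43 and 0.12 ± 0.44 in cebpd KO and by -0.14 ± 0.43 and -0.42 ± 0.44 in CEN KO (SE, lowest adjusted p 0.816). Within cebpd KO, sox5 ranged from 4.64 CPM in replicate 3 to 25.8 CPM. sox21a, a repressor of group B, was at 2.34 to 3.11 CPM in cebpd WT, 2.96 to 4.25 in cebpd KO, 4.08 to 5.76 in CEN WT and 4.43 to 8.21 CPM in CEN KO. Its knockout changes were 0.32 ± 0.29 and 0.24 ± 0.28 (SE, adjusted p 0.703 and 0.84).

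Among the nephron factors the early regulator pax2a was at 135, 175 and 144 CPM in cebpd WT and at 189, 185 and 152 CPM in cebpd KO. In CEN WT it stood at 194, 254 and 266 CPM and in CEN KO at 172, 224 and 227 CPM. The knockouts overlapped their wild types in both experiments, with log2 fold changes of 0.21 ± 0.17 and -0.20 ± 0.17 (SE, adjusted p 0.651 and 0.755). osr1 and osr2, zinc finger factors of the intermediate mesoderm, likewise gave 0.44 ± 0.27 and 0.16 ± 0.21 in cebpd KO and 0.05 ± 0.26 and -0.12 ± 0.21 in CEN KO (SE, lowest adjusted p 0.536).

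The progenitor genes six2a and lhx1a were rare, and neither was called in a knockout. six2a stood at 0.562, 0.444 and 0.67 CPM in cebpd WT and at 0.927, 1.24 and 0.929 CPM in cebpd KO. These groups did not overlap, and the log2 fold change was 0.88 ± 0.39 (SE, adjusted p 0.357). In CEN WT six2a was 1.37, 1.88 and 2.37 CPM and in CEN KO 0.887, 1.74 and 1.82 CPM, -0.34 ± 0.35 (SE, adjusted p 0.811). lhx1a was at 0.659, 0.418 and 0.848 CPM in CEN WT and at 2.11, 0.637 and 1.64 CPM in CEN KO, so the groups overlapped. The difference was 1.18 ± 0.55 (SE, adjusted p 0.515), and 0.82 without CEN KO 1 (adjusted p 0.659). In cebpd KO lhx1a changed by 0.01 ± 0.62 (SE). For six2a the difference between the effects of the knockouts was -1.22 ± 0.52 (SE, adjusted p 0.353).

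Hnf4 nuclear receptors regulate tubule genes, and neither tested gene of this family was called in a knockout. hnf4a, which drives proximal tubule genes in the mouse, was at 63.8, 108 and 75.3 CPM in cebpd WT and at 76.6, 69.7 and 59.5 CPM in cebpd KO. In the CEN groups it was at 75.8, 92.1 and 138 CPM in WT and at 111, 125 and 182 CPM in KO. The groups overlapped in both experiments, with changes of -0.26 ± 0.26 and 0.45 ± 0.26 (SE, adjusted p 0.735 and 0.613). hnf4g was at 216, 334 and 233 CPM in cebpd WT and at 170, 214 and 296 CPM in cebpd KO, and at 128, 152 and 208 CPM in CEN WT and 142, 197 and 197 CPM in CEN KO. It overlapped in both as well, with changes of -0.20 ± 0.25 and 0.13 ± 0.25 (SE, adjusted p 0.793 and 0.931).

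Irx genes, which pattern the distal segments in zebrafish embryos, had log2 fold changes above 0 in 2 of 6 genes in cebpd KO (median -0.14) and 6 of 6 in CEN KO (median 0.25), and none past the threshold. irx3b stood at 118, 99 and 70.6 CPM in cebpd WT and at 70.2, 104 and 46.8 CPM in cebpd KO. In CEN WT it ranged from 54.9 to 150 CPM and in CEN KO from 80.7 to 158 CPM, so spread within a group exceeded the change. irx1a changed by -0.08 ± 0.28 and 0.31 ± 0.28 (SE) in the cebpd and CEN knockouts, irx2a by -0.20 ± 0.20 and 0.20 ± 0.20, irx3a by 0.35 ± 0.28 and 0.29 ± 0.28, and irx5a by 0.19 ± 0.30 and 0.58 ± 0.29. irx5b had the lowest p of the 74 genes in cebpd KO. It was at 1.4, 0.887 and 1.28 CPM in cebpd WT and at 0.494, 0.538 and 0.663 CPM in cebpd KO, without overlap, -1.07 ± 0.41 (SE, adjusted p 0.276) on the log2 scale. In the CEN groups irx5b was at 0.366 to 0.678 CPM in WT and 0.347 to 0.849 CPM in KO, so cebpd WT was the higher group of all 4. It had 14 to 25 counts a library in cebpd WT and 6 to 14 in the other groups, so it passed the filter through cebpd WT. Its values against cebpd WT, here and below, are therefore not read as support for a difference.

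Lists of the segments themselves were read beside these regulators. In cebpd KO 7 of 19 proximal tubule genes were above 0 (median -0.26) and 3 of 15 distal tubule and duct genes (median -0.16), with 1 call, rhbg, an ammonia transporter gene that fell by 1.11 (log2, adjusted p 0.0487). In CEN KO 14 of 19 and 13 of 15 were above 0, both with a median of 0.19 and no call. Of all genes 48.6% lay above 0 in cebpd KO and 50.6% in CEN KO. By edgeR 0.0845% of all genes were called in cebpd KO and 0.00845% in CEN KO. In cebpd KO 0.0676% of all genes were called lower. The sums of the proximal list were 8250 to 12500 CPM in cebpd WT, 7340 to 9020 in cebpd KO, 8140 to 10300 in CEN WT and 8470 to 11100 CPM in CEN KO. For the distal list they were 8090 to 11500, 7500 to 8440, 7520 to 9730 and 8290 to 11500 CPM, with trpm6 at 0 in all 4 groups and kcnj1b in all but CEN KO. Of 10 tested neutrophil genes none was called in either knockout. In cebpd KO 9 of them were above 0 (median 0.54). The sums of that list, over 11 genes, were 2870 to 3870 CPM in cebpd WT and 5180 to 6130 CPM in cebpd KO, with none at 0. Their part in the values of the Hnf4 and Irx genes was not tested.

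The remaining nephron factors were called in neither knockout. Emx1 is needed for distal segments in zebrafish embryos, and emx1 was at 110, 127 and 98.3 CPM in cebpd WT and at 93.2, 127 and 88 CPM in cebpd KO, a change of -0.12 ± 0.20 (SE). In CEN KO it changed by -0.01 ± 0.20, while emx2 changed by 0.30 ± 0.28 and 0.41 ± 0.28 (SE) in the cebpd and CEN knockouts. tfap2b, which with tfap2a promotes distal differentiation in zebrafish, was at 15.1, 20.3 and 17.4 CPM in cebpd WT and at 19.2, 29.8 and 23.7 CPM in cebpd KO. The ranges overlapped, and the change was 0.46 ± 0.22 (SE, adjusted p 0.405). tfap2a gave 0.00 ± 0.21 and 0.02 ± 0.21 (SE), and tfap2c 0.42 ± 0.28 and -0.21 ± 0.27. sim1a stood at 8.34, 8.99 and 8.76 CPM in CEN WT and at 5.49, 5.67 and 5.15 CPM in CEN KO, with no overlap and little spread in either group. The log2 fold change was -0.68 ± 0.59 (SE, adjusted p 0.765), with an estimate of the spread that all 12 libraries share, among them those of cebpd KO at 0.796 to 11.9 CPM. sim1b, at 20.9 to 27.1 CPM in CEN KO and 17.3 to 40.5 CPM in CEN WT, overlapped. six5, six6a, lhx4 and lhx6 changed by -0.12 ± 0.46, -0.37 ± 0.66, 0.26 ± 0.40 and 0.11 ± 0.33 in CEN KO, and by -0.04 ± 0.48, 0.48 ± 0.65, -0.08 ± 0.39 and 0.03 ± 0.33 in cebpd KO (SE).

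**Figure D4:**
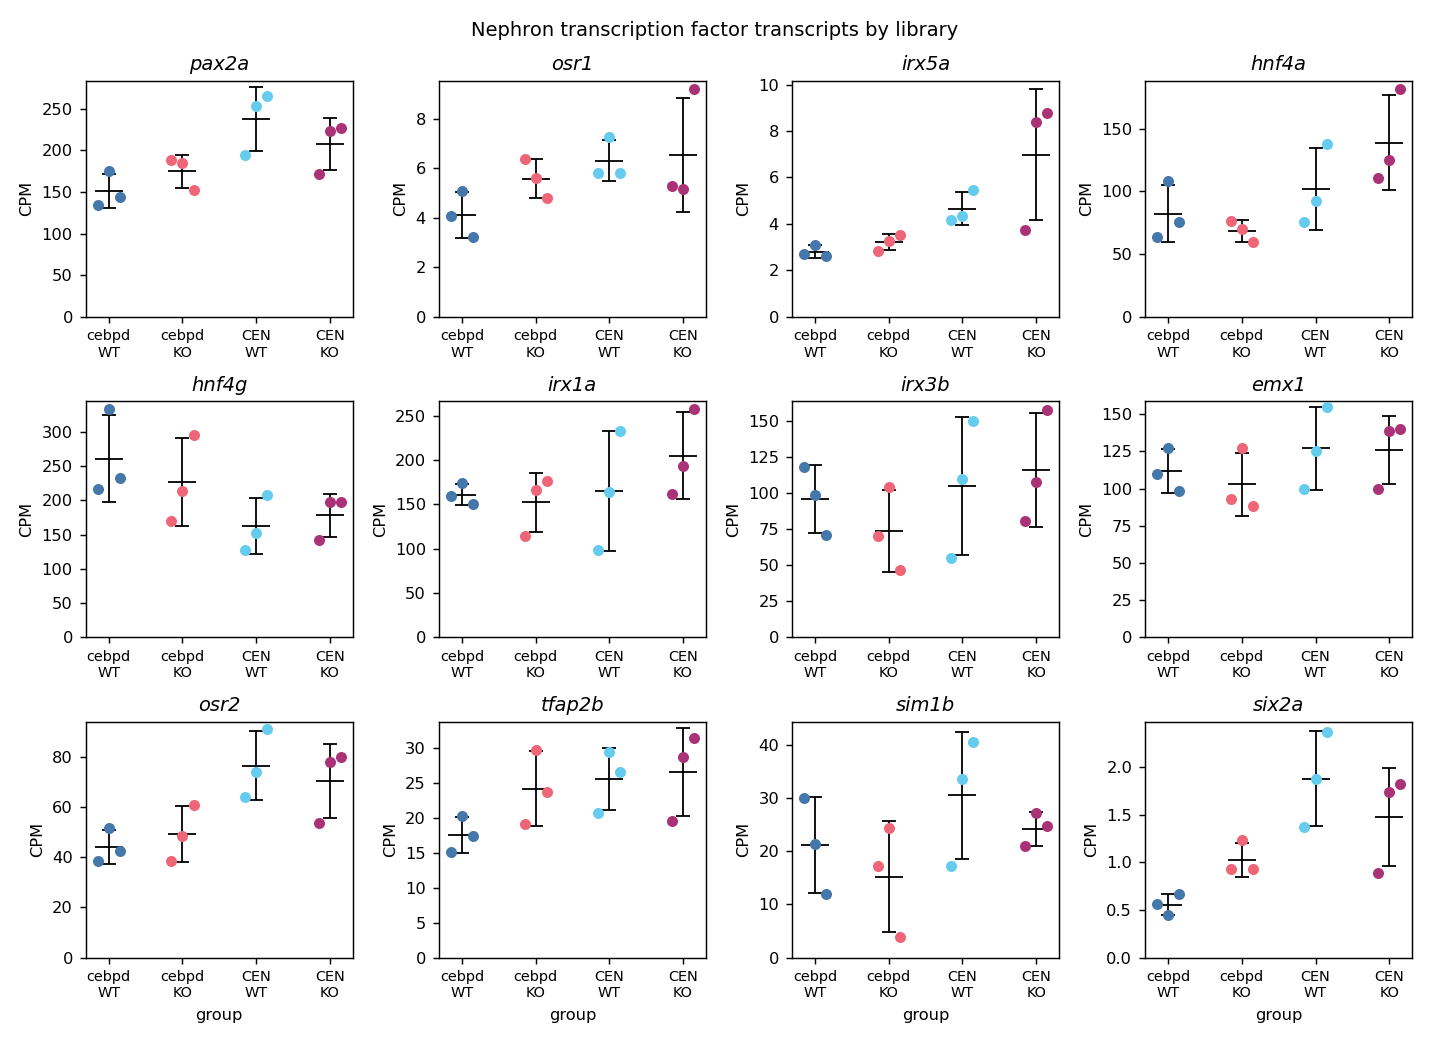
CPM of 12 nephron transcription factor genes by group, 1 point a library, with mean and SD as bars, each panel on its own scale from 0. Knockouts overlap their wild types in nearly every panel (six2a in the cebpd experiment is an exception). pax2a, osr1, irx5a, osr2, tfap2b and six2a are higher in all CEN WT libraries than in any of cebpd WT, and hnf4g is lower in all of them.

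No Hox gene passed in either knockout, where 0.0845% of all genes were called in cebpd KO and 0.00845% in CEN KO. The 31 tested Hox genes had a median log2 fold change of 0.11 in cebpd KO, with 17 above 0, and of 0.02 in CEN KO, with 16 above 0. Of all genes 48.6 and 50.6% lay above 0. hoxc6a was without overlap in both experiments. It stood at 1.29, 2.09 and 2.07 CPM in cebpd WT and 2.35, 2.9 and 3.45 CPM in cebpd KO, and at 3.07, 3.82 and 2.54 CPM in CEN WT and 4.21, 4.8 and 4.85 CPM in CEN KO. Both knockouts were higher, by 0.67 ± 0.27 and 0.55 ± 0.26 (SE), with adjusted p of 0.301 and 0.518. Its duplicate hoxc6b changed by -0.24 ± 0.31 and 0.44 ± 0.30 (SE) and overlapped in both.

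For hoxd10a the values had opposite signs in the knockouts. It was at 0.731, 0.951 and 0.426 CPM in cebpd WT and at 1.36, 0.86 and 1.46 CPM in cebpd KO, with overlap. In CEN WT it was at 1.04, 1.31 and 1.7 CPM and in CEN KO at 0.721, 0.637 and 0.606 CPM, with none. The changes were 0.79 ± 0.38 and -1.03 ± 0.38 (SE, adjusted p 0.4 and 0.374), and the difference between them was -1.83 ± 0.53 (SE, adjusted p 0.177). At 0.426 to 1.7 CPM these are few reads per library.

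Other Hox genes of groups 9 and 10 were called in neither knockout, and their signs were mixed. hoxc10a changed by -0.44 ± 0.34 in cebpd KO and by -0.41 ± 0.34 in CEN KO (SE). hoxc9a was at 6.74, 7.73 and 6.03 CPM in cebpd WT and at 3.95, 4.95 and 5.97 CPM in cebpd KO, without overlap, -0.46 ± 0.22 (SE, adjusted p 0.401). In CEN KO it changed by 0.30 ± 0.22 (SE). hoxb9a and hoxb10a were 0.34 ± 0.16 and 0.34 ± 0.17 higher in CEN KO (SE, adjusted p 0.528 and 0.54) and changed by -0.07 ± 0.16 and -0.16 ± 0.17 in cebpd KO. Without CEN KO 3 the value of hoxb10a in CEN KO was 0.15. hoxa9b changed by -0.63 ± 0.37 in cebpd KO and 0.59 ± 0.35 in CEN KO (SE), with a difference of 1.22 ± 0.51 (adjusted p 0.339), and its duplicate hoxa9a by 0.57 ± 0.65 and 0.12 ± 0.57. At the anterior end hoxa2b was at 0.974 to 1.9 CPM in cebpd WT and 1.53 to 4.03 CPM in cebpd KO, 0.87 ± 0.44 (SE, adjusted p 0.433). Without cebpd KO 2 this value was 0.29. For hoxb2a it was 0.24 ± 0.34 (SE).

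The trunk genes hoxb7a, hoxb8a and hoxc8a lay in narrow ranges. hoxb8a was at 85.6, 97.2 and 96.9 CPM in cebpd WT and at 90.9, 108 and 116 CPM in cebpd KO, and at 115, 116 and 134 CPM in CEN WT and 108, 137 and 133 CPM in CEN KO. hoxb7a lay between 31.7 and 48.6 CPM and hoxc8a between 13.1 and 17.7 CPM over all 12 libraries. Their knockout changes ranged from -0.13 to 0.17, with SE of 0.14 to 0.16 and overlapping groups. hoxb6a changed by 0.47 ± 0.25 and 0.15 ± 0.25 (SE) in the cebpd and CEN knockouts.

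Comparison of the difference between the effects over all 74 genes gave no call by edgeR, against 0.0422% of all genes, and 5 genes at an unadjusted p under 0.05, against 12.9%. sox4b was the single call of DESeq2, against 2.91% of all genes, and limma-voom gave none, against 0.0676%. As many genes lay above 0 as below, 37 each, where 51% of all genes lay above 0, with a median of 0.00 (all genes 0.01). After sox4b and hoxd10a the lowest p belonged to hoxc9a (0.76 ± 0.31, adjusted p 0.333), hoxa9b, six2a, hoxb10a (0.50 ± 0.24, adjusted p 0.407), hnf4a (0.71 ± 0.37, adjusted p 0.443) and irx5b (1.16 ± 0.60, adjusted p 0.446), all with the SE.

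More of these genes were called between the wild types of the experiments than in either knockout, and all that were called were higher in CEN WT. Each experiment had its own wild types, so the experiment and any batch that goes with it cannot be told apart here. By edgeR 15 of the 74 genes passed (20.3%), against 25% of all genes. In the higher direction it was 15, against 10.9% of all genes, and in the lower direction 0, against 14.1%. The median log2 difference was 0.45 for the 74 genes and 0.01 for all genes, and 61 of 74 (82.4%) lay above 0 against 50.6% of all genes. DESeq2's size factors gave 61 as well. At an unadjusted p under 0.05 there were 27 of 74, against 38% of all genes. DESeq2 called 17 and limma-voom 14 of the 74, against 29.7 and 25.2% of all genes. The count of 15 fell to 8 without cebpd WT 1, cebpd WT 3 or CEN WT 3 and to 9 without CEN WT 2.

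Besides sox4b and sox4a, the called Sox genes were sox12 and sox3. sox4a was higher in CEN WT by 0.83 ± 0.18 (SE, adjusted p 0.00681). sox12 was at 1.4, 1.96 and 0.974 CPM in cebpd WT and at 5.1, 2.56 and 5.14 CPM in CEN WT, 1.56 ± 0.49 (SE, adjusted p 0.0371). sox3, a group B factor of neural tissue, stood at 0.112, 0.19 and 0.183 CPM in cebpd WT and at 0.604, 0.523 and 0.565 CPM in CEN WT (adjusted p 0.0287). In cebpd WT sox3 had 2 to 3 counts a library, at or under the floor, so the size of its difference is not given. Only CEN libraries reached 10 counts of sox3, so it passed the filter through the groups in which it was high. Its call is therefore not read as support for a difference. sox21a was higher by 0.83 ± 0.29 (SE, adjusted p 0.052), without overlap, and missed the threshold.

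The called nephron factors included six2a, pax2a and osr2. The difference was 1.73 ± 0.38 for six2a (adjusted p 0.00732), 0.65 ± 0.17 for pax2a (0.0156) and 0.79 ± 0.21 for osr2 (0.0181), each with the SE. In all 3 genes the lowest CEN WT library lay above the highest cebpd WT library, for instance 194 against 175 CPM for pax2a. osr2 was at 38.3, 51.6 and 42.5 CPM in cebpd WT and at 64, 74.1 and 91.2 CPM in CEN WT. Not every segment gene took this direction. hnf4g was lower in all CEN WT than in all cebpd WT libraries, -0.68 ± 0.25 (SE, adjusted p 0.0663). irx5b differed by -1.21 ± 0.41 (SE, adjusted p 0.0501), but it passed the filter through cebpd WT, so this value is not read as support. emx1, irx1a, irx2a and irx3b differed by 0.18 ± 0.20, 0.04 ± 0.28, 0.03 ± 0.20 and 0.13 ± 0.38 (SE) and overlapped. tfap2b and tfap2c were without overlap and higher, by 0.54 ± 0.22 and 0.70 ± 0.27 (SE, adjusted p 0.0959 and 0.0827).

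Of 31 tested Hox genes 7 were called, all higher, beside the 25% of all genes called and 10.9% called higher, and 6 of them belonged to paralogue groups 3 to 5. hoxb3a was at 22.5, 24.5 and 22.8 CPM in cebpd WT and at 43.6, 48.8 and 50 CPM in CEN WT. hoxb5a was at 9.36 ± 0.978 CPM against 17.2 ± 1.18 CPM (SD, n = 3), and hoxa5a at 0.843, 0.76 and 0.913 CPM against 3.18, 1.88 and 2.26 CPM. In each of these 3 genes the groups stood well apart. The log2 differences were 1.03 ± 0.18 for hoxb3a (adjusted p 0.00224), 1.53 ± 0.30 for hoxa5a (0.00431), 0.88 ± 0.19 for hoxb5a (0.00668), 0.85 ± 0.23 for hoxa3a (0.0183), 0.92 ± 0.29 for hoxa4a (0.038), 0.75 ± 0.25 for hoxc3a (0.0491) and 0.79 ± 0.27 for hoxc6a (0.0497), each with the SE. In both experiments the knockouts overlapped their own wild types in hoxb3a, hoxa3a, hoxa4a and hoxc3a, with hoxb3a at 22.2 to 34.6 CPM in cebpd KO and 37.9 to 54.7 CPM in CEN KO. hoxa5a and hoxb5a were higher without overlap in cebpd KO, by 0.55 ± 0.31 and 0.30 ± 0.19, and hoxc6a in both knockouts, by 0.67 ± 0.27 and 0.55 ± 0.26 (SE), none past the threshold.

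Set out by position in the clusters, the median difference between the wild types was highest in the anterior Hox genes. Of all genes 25% were called in this comparison, 10.9% higher. In groups 1 to 5, 6 of 13 tested genes were called, 12 lay above 0 and the median was 0.79. In groups 6 to 8, 1 of 7 was called, 5 lay above 0 and the median was 0.30. In groups 9 to 13, 0 of 11 were called, 7 lay above 0 and the median was 0.04. The wild types did not overlap in 8 of 13, 2 of 7 and 6 of 11 genes of these ranges, against 46.4% of all genes. This order was read off the data, the genes of a cluster are not independent of each other, and it was given no test. Posterior to group 6, genes with small errors were hoxb7a (-0.19 ± 0.15), hoxb8a (0.38 ± 0.14), hoxc8a (-0.03 ± 0.16), hoxb9a (-0.06 ± 0.16) and hoxb10a (-0.25 ± 0.17, all SE). With larger errors, hoxa9a (1.18 ± 0.62), hoxd10a (0.93 ± 0.38), hoxa10b (0.87 ± 0.44) and hoxd9a (0.52 ± 0.27, all SE) were higher in CEN WT without overlap, and hoxc11a was lower (-0.81 ± 0.47). hoxa9a had 4 to 8 counts a library in cebpd WT and passed the filter through the CEN groups, so its difference is not read as support.

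**Figure D5:**
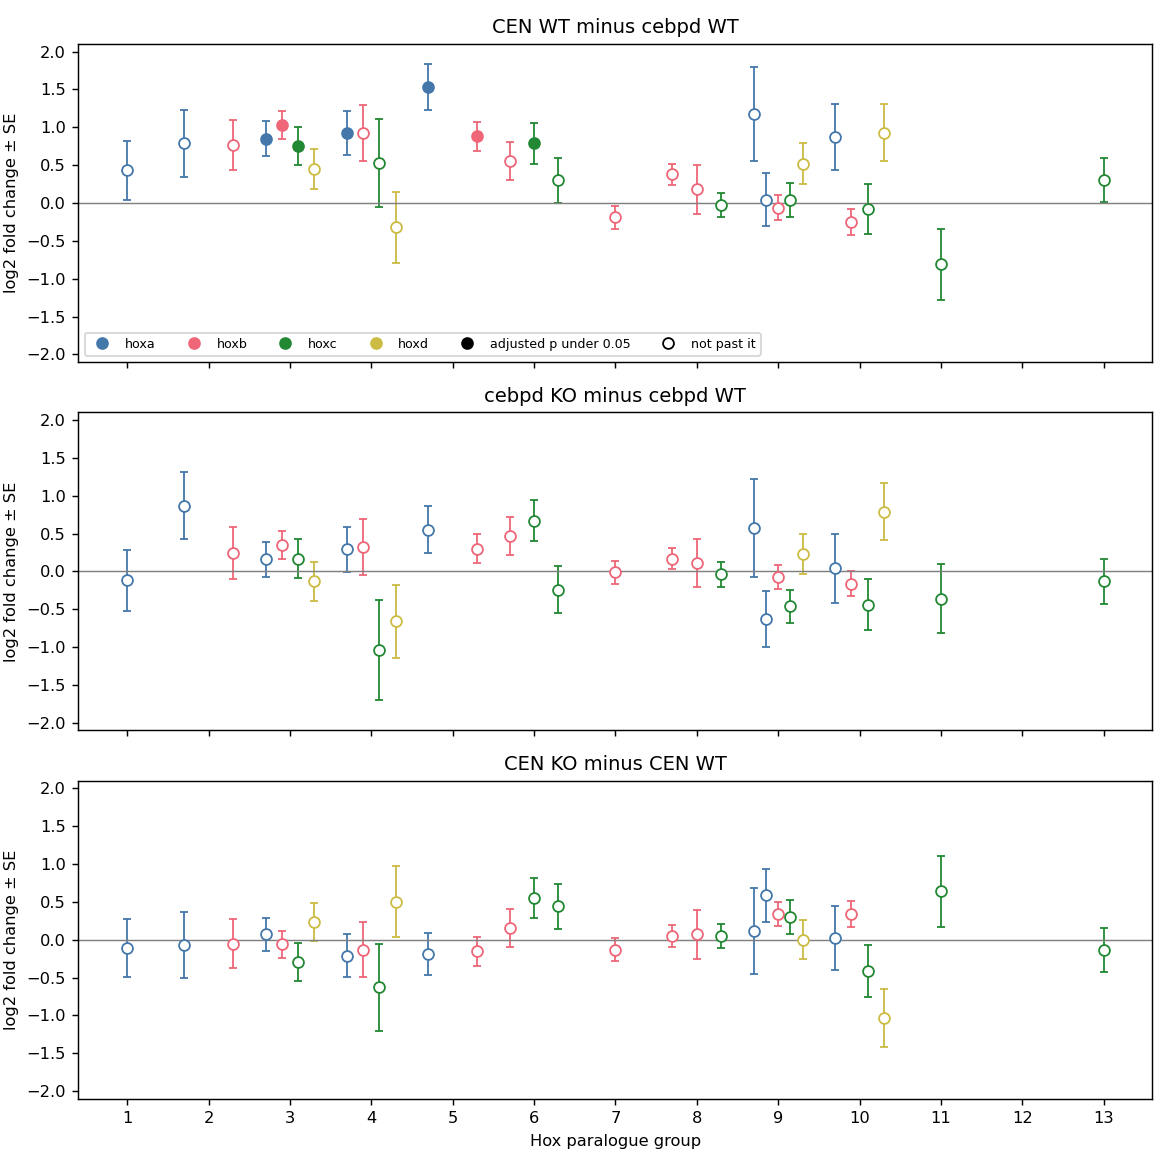
Log2 fold change with its SE for the 31 tested Hox genes by paralogue group (points of a group are set side by side around its number), coloured by cluster letter, for CEN WT minus cebpd WT (top), cebpd KO minus cebpd WT (middle) and CEN KO minus CEN WT (bottom), with filled points past an adjusted p of 0.05 by edgeR. The filled points are 7, all in groups 3 to 6 of the top panel, and points of the lower panels scatter around 0.

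Without overlap between the wild types were 35 of the 74 genes, against 46.4% of all genes, 31 of them higher in CEN WT against 22.8% and 4 lower against 23.6%. Markers of other cells were read in this comparison, in which 10.9% of all genes were called higher and 14.1% lower. All 10 endothelial genes were above 0, 4 of them called, with sums of 549 to 702 CPM in cebpd WT and 857 to 893 CPM in CEN WT. All 7 T and NK cell genes were above 0 as well, 5 of them called, with sums of 24.8 to 29.3 and 41.5 to 53.2 CPM. Of 10 tested glia and neuron genes all were above 0, 2 of them called. The sums of that list, over 12 genes, were 101 to 152 and 157 to 200 CPM, with the untested gap43 at 0 in both groups. None of the endothelial or T and NK genes was at 0. Of 10 podocyte genes 8 were above 0 with 1 call, while 9 of 19 proximal tubule genes were above 0 with 3 calls higher and 2 lower. Among blood cells, 8 of 10 stem cell genes were above 0 with 2 calls, and 9 of 11 macrophage genes with none. Of 10 neutrophil genes 6 were above 0, with 1 call higher and 2 lower. Other lists went both ways. Of 8 erythroid genes 6 were above 0 (median 0.19), and of 9 multiciliated cell genes 5 (0.00), with no call. Of 3 B cell genes 2 were above 0 (1.17), with 2 calls higher and 1 lower. Of 4 testis and ovary genes 3 were above 0 (2.94), with no call. The remaining marker lists lay mostly below 0. Above 0 were 1 of 8 interrenal and chromaffin genes (median -0.76), 3 of 10 skeletal muscle genes (-0.28), 5 of 15 distal tubule and duct genes (-0.03) and 6 of 17 cell cycle genes (-0.18). The part of these cells in the values of the Sox, Hox and nephron factors was not tested.

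Other regulators of the nephron, which act beside these factors, were read from a list. Of 27 tested genes none was called in the cebpd or CEN knockouts (medians -0.07 and 0.01), against 0.0845 and 0.00845% of all genes. In CEN WT 7 were called higher and 1 lower than in cebpd WT, with a median of 0.35. Of all genes 10.9% were called higher and 14.1% lower there. The higher genes included notch1a and jag1b, a receptor and a ligand of the Notch pathway that decides cell fates in the nephron, at 1.23 ± 0.17 and 1.11 ± 0.16 (SE, adjusted p 0.000734 and 0.00104), and eya1, a cofactor of sine oculis homeobox proteins, at 1.78 ± 0.26 (SE, adjusted p 0.000937). lmx1bb, tcf21, tbx2a and jag2b were higher by 1.41, 1.07, 1.09 and 0.67, and wnt9b was lower, at -1.69 ± 0.51 (SE, adjusted p 0.032). tcf21, a podocyte and stromal factor, had the lowest p of this list in cebpd KO. It stood at 2.81, 3.17 and 3.04 CPM in cebpd WT and at 6.8, 5.65 and 8.89 CPM in cebpd KO, 1.24 ± 0.22 (SE, adjusted p 0.0535), and next came foxj1b, a factor of ciliated cells, at -0.86 ± 0.20 (SE, adjusted p 0.0961). In CEN KO the lowest p were those of notch1a (-0.49 ± 0.16, adjusted p 0.317) and eya1 (-0.58 ± 0.24, adjusted p 0.458), with the SE.

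Of 16 tested cofactors of Hox proteins and chromatin regulators of Hox genes, none was called in either knockout (medians 0.15 and 0.03). Of all genes 0.0845% were called in cebpd KO and 0.00845% in CEN KO. In CEN WT 3 were called higher and 1 lower than in cebpd WT, with a median of 0.29. Of all genes 25% were called there, 10.9% higher and 14.1% lower, so the number of calls is near that share. meis2a, which binds DNA with Hox proteins, was at 29, 35.6 and 25.2 CPM in cebpd WT and at 51.1, 51.5 and 58.3 CPM in CEN WT, 0.84 ± 0.14 (SE, adjusted p 0.00191). In cebpd KO meis2a was at 38.1, 39 and 40.7 CPM and in CEN KO at 33.6, 40.7 and 37.4 CPM. As for sox4b, the CEN WT libraries were the highest of the 12, and the knockout changes were 0.39 ± 0.14 and -0.53 ± 0.14 (SE, adjusted p 0.24 and 0.236). pbx3b and meis1b were higher in CEN WT by 1.41 ± 0.29 and 0.45 ± 0.13 (SE), and ezh2, a histone methyltransferase that silences Hox genes, was lower there by a log2 value of -0.59 ± 0.15 (SE, adjusted p 0.0162). ezh2 also had the lowest p of this list in cebpd KO, -0.60 ± 0.15 (SE, adjusted p 0.118).

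Retinoic acid activates anterior Hox genes and divides the nephron into segments in zebrafish embryos, and the genes that make and break it were read for that reason. Of 23 tested genes none passed in the cebpd or CEN knockouts (medians 0.09 and 0.02), against 0.0845 and 0.00845% of all genes. cyp26b1, which encodes an enzyme that degrades retinoic acid, stood at 7.98, 11.5 and 7.55 CPM in cebpd WT and at 26, 24.2 and 14.7 CPM in cebpd KO. In the CEN groups it was at 15.9, 13.4 and 12.9 CPM in WT and at 39, 27.7 and 30.2 CPM in KO. Both knockouts lay above their wild types without overlap, by 1.27 ± 0.24 and 1.2 ± 0.24 (SE), and missed the threshold with adjusted p of 0.063 and 0.14. aldh1a2, which encodes an enzyme that makes retinoic acid, was lower without overlap in both, from 34.5, 34.2 and 28.4 to 21.6, 21 and 25.2 CPM in the cebpd groups and from 38.7, 43.1 and 28.5 to 21.9, 23.3 and 16.4 CPM in the CEN groups. Its changes were -0.52 ± 0.18 and -0.84 ± 0.18 (SE, adjusted p 0.233 and 0.181). Other genes of the list had opposite signs in the knockouts. rdh10b changed by -0.78 ± 0.32 in cebpd KO and 1.16 ± 0.33 in CEN KO (SE, adjusted p 0.312 and 0.245). stra6 changed by 0.34 ± 0.35 and -1.38 ± 0.35 (SE, adjusted p 0.75 and 0.229). Of the 23 genes 16 lay above 0 in cebpd KO and 13 in CEN KO. Between the wild types 5 genes were higher in CEN WT (crabp1a and stra6, both 1.54, rdh10a 0.90, rarga 0.67 and rarab 0.49 on the log2 scale) and 2 lower (rdh10b -2.06 and aldh8a1 -0.66), with a median of 0.35. Of all genes 25% were called there, 10.9% higher and 14.1% lower.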

How the data were processed

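The authors deposited 1 file of raw read counts per gene for each of the 12 libraries, with no normalization. Trim Galore 0.6.4, TopHat2 2.1.1, HTSeq (listed as 1.6.1) and the build danRer10 were used, per the submitters' processing notes, which as read here give no roles. Annotation and strand setting: not given in the sources used here. Reads of antisense neighbours therefore cannot be separated, and near-identical duplicates may have shared or lost reads. Each file had 14781 gene rows. Its 5 summary lines were removed. Of these, reads that fell in no annotated feature made up 32.1 to 38.5% and ambiguous reads 1.32 to 3.99% of a file's total, and the other lines are not given.

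Counts were tested in R 4.3.3 with edgeR 4.0.16 (quasi-likelihood test, filterByExpr with a minimum count of 10, TMM factors of 0.835 to 1.1, a term for each of 4 groups over 12 libraries, 8 residual degrees of freedom). P-values were adjusted by Benjamini-Hochberg over the 11840 tested genes and called under 0.05. The SE comes from the log2 fold change and its F statistic. Means are given with SD over 3 libraries. The test was tested on simulated data.

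The genes, lists and rule for named genes were chosen with earlier results of these data known, among them the sox4b difference, which is therefore no independent support. Named were cebpd, called genes, the 8 of lowest p in each comparison and their duplicates, all tested genes outside the Hox and Sox families, Sox groups C, E and F, and other Hox and Sox genes of at least 5 CPM in a group, and from the lists of pathways and segments the called genes or the 2 of lowest p. Not all of these have every value printed. Alternatives were DESeq2 1.42.0 and its size factors, limma-voom (limma 3.58.1), leaving the filter out, requiring 10 CPM in 3 libraries, a threshold of 0.1, the 6 libraries compared, the replicate number as a block, and leaving out each library. Leaving out cebpd KO 3 and CEN KO 1 together was added after seeing the data. No pair of libraries of a group agreed within counting noise, so none was taken as 1 library deposited again. Of 126 symbols 125 matched a RefSeq gene table of another assembly (GRCz12tu), whose coordinates are not given. Results of some of the genes that the rule selects are not reported here, although the genes stay in the counts.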

Additional observations from a re-analysis of the deposited data

How the results depend on the processing

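For the cebpd knockouts the count of called genes was 0 under all 21 alternatives. For the CEN knockouts it was 0, and 1 (sox4b) at an adjusted p under 0.1, with the filter of 10 CPM in 3 libraries, with DESeq2 and with limma-voom, and 0 to 1 on leaving out each library. For the difference of effects it was 0, and 1 (sox4b) at an adjusted p under 0.1, with the 10 CPM filter, with DESeq2, and without both libraries that stood apart, and 0 to 1 on leaving out each library. That difference could not be fitted on 6 libraries. For the wild types the count of 15 became 24 at an adjusted p under 0.1, 8 with the 10 CPM filter, which tests 30 of the genes, 23 without both libraries that stood apart, and 8 to 22 on leaving out each library. Calls lost most often on leaving out 1 of 12 libraries were hoxc6a (11 times), hoxc3a (9), and sox3, sox12 and hoxa4a (6 each), while sox4b, hoxb3a, hoxa5a, hoxb5a, sox4a and six2a were among those lost in none. Values of single genes were recomputed for the called genes and the 8 of lowest p in each comparison. Of 783 such values 705 stayed on their side of the threshold, 66 lost a call, 12 gained one and 0 changed direction. Wild-type values from the replicate block, which is described below, are among these. The genes were picked by their p in the same data, so the lack of reversals says little about the other genes. Among values without a call, leaving out CEN KO 3 took sox17 in CEN KO from 0.62 to 0.37, and the differences of effects from 0.71 to 0.47 for hnf4a, 1.16 to 0.71 for irx5b and 0.50 to 0.30 for hoxb10a. Leaving out cebpd WT 2 also took hnf4a to 0.47, and leaving out cebpd KO 2 took tfap2b in cebpd KO from 0.46 to 0.28.

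The labels give replicate numbers but no pairing, so the numbers were not taken to pair the samples in the main test. Deviations of same-numbered libraries had correlations of 0.30, -0.01 and 0.37 in the cebpd and 0.20, -0.02 and 0.16 in the CEN experiment. Correlations of differently numbered libraries are not given beside them, so these values do not settle whether the samples were paired. With the replicate number as a block the counts were 0 for both knockouts and 1 for the difference of effects (sox4b, adjusted p 0.0447 by edgeR). For the wild types that fit compared the fitted level of replicate 1 in each experiment and not the group means. Its count of 5 therefore answers another question and is no check of the main count.

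Depth limits the rare genes, since 3 counts are 0.157 to 0.199 CPM. With 3 libraries a group and a common biological coefficient of variation of 25.3%, a missed threshold does not show that a gene was the same in the groups.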
